A study of Rattus norvegicus with 12 samples.

Results

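Tumours grown in the brain from 9L rat gliosarcoma cells carrying an empty vector (9L.EV) were described on their own, as 6 of the 12 tumours of the series. They were taken by their label, so no measured value chose them. Each came from a separate female Fischer rat, 4 to 6 weeks old and 120 to 150 g, whose cortex had received 9L.EV cells in 10 µL of buffer at a depth of 2 mm. The rats had no treatment. The growth protocol shared by all samples gives transfection with pcDNA3.1(+) and selection in 600 µg/ml zeocin for the EGFRvIII cells, and does not spell out the making of the 9L.EV cells. All were removed after 3 weeks, and about 100 ng of total RNA per tumour was hybridised to a rat Illumina bead array, 1 array per tumour. The labels name a single 9L.EV line, so the 6 rats repeat the growth of the tumour and not the making of the line. The labels describe the tissue as tumour only, with no account of how brain tissue was trimmed from it. The other 6 tumours, from 9L cells with EGFRvIII, were compared with nothing here.

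The 9L line is a gliosarcoma, a tumour with both glial and connective tissue features, and implanted into its own rat strain it grows beside neurons and glia of the cortex. Such tumours take in macrophages, microglia, lymphocytes and vessels, and all of them add RNA to a bulk extract. Interferon-gamma from T and NK cells acts on tumour and host cells and induces the chemokines Cxcl9, Cxcl10 and Cxcl11 and the machinery that presents antigens on MHC molecules. In bulk tissue, fewer cells of a type and less RNA per cell cannot be told apart.

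Between 11720 and 12719 of 22523 probes were detected per array (detection p under 0.05), 10198 on all 6 arrays and 8070 on none. A gene was kept when any of its probes was detected on at least 3 arrays, and the brightest such probe stood for it. This left 12182 genes, 8665 of them with a symbol. Correlations between arrays ran from 0.919 to 0.984. The tumours of rats 2 and 3 stood apart, with a median correlation with the other arrays of 0.940 and 0.947, against 0.971 to 0.984 for the other 4, so values without them are given below. Rat 2 also had the most detected probes and the most detected on its array alone (458, against 105 to 298 on the others). Of the variance between arrays, 48.2% lay on principal component 1 and 30.3% on principal component 2.

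All values below are log2 signals after background correction and quantile normalization, and a spread is the SD over the 6 tumours. Spread was tested with limma, each gene's variance against that of genes of like level. No gene was called at an adjusted p of 0.05 for a wide spread (0 of 12182, 0%) or for a narrow one (0 of 12182, 0%). The lowest adjusted p was 0.280 for wide and 0.855 for narrow spreads, while 977 and 509 genes had an unadjusted p under 0.05. Even Snap25, with the largest SD (2.57), had an unadjusted p of 0.00037 and an adjusted p of 0.280 in this test. The absence of calls thus does not show that spreads are alike. Genes are therefore described by an SD of at least 1, a level chosen after the data were seen, and no gene below is claimed to vary more than its peers by a test. The median SD of all kept genes was 0.26, and 478 genes (3.92%) had an SD of at least 1.

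**Figure D1:**
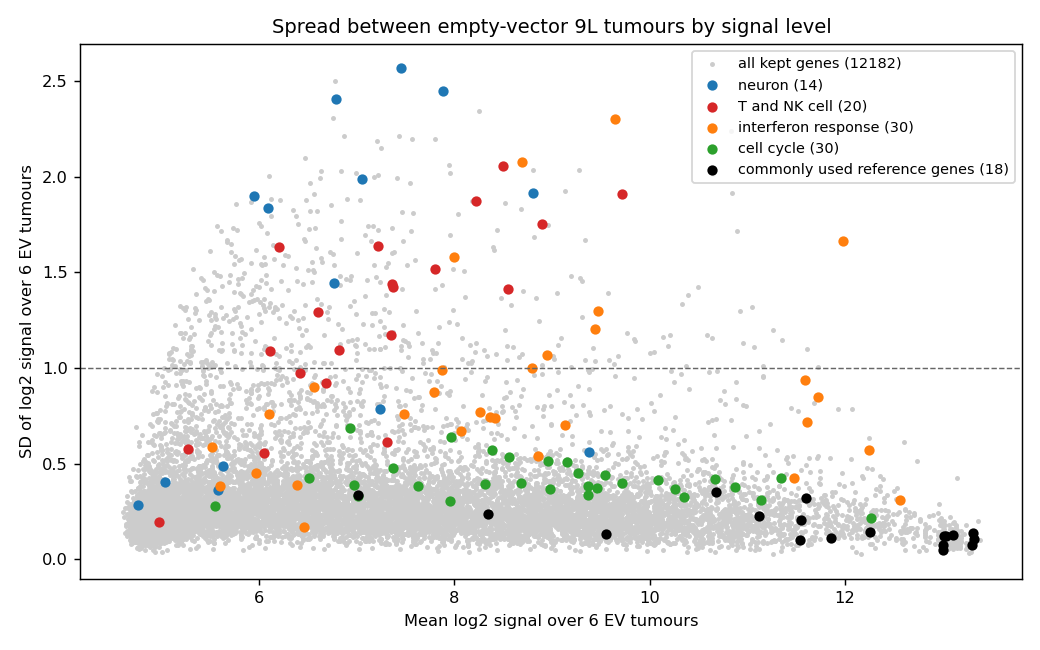
SD against mean log2 signal over the 6 EV tumours, 1 point per kept gene (grey), with the kept members of 5 gene lists in colour and a dashed line at an SD of 1. Of the neuron markers 8 of 14 and of the T and NK cell markers 14 of 20 lie on or above the line, against 3.92% of all kept genes. None of the cell cycle or reference genes do.

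The highest mean among named genes was that of Rpl10, a protein of the large ribosomal subunit, at 13.38 ± 0.10 (SD, n = 6). It was followed by Txn1 (thioredoxin, 13.36 ± 0.20), Rplp0 (ribosomal stalk, 13.32 ± 0.11), Ppia (cyclophilin A, 13.31 ± 0.14), Actb (beta actin, 13.31 ± 0.07) and Rack1 (a scaffold protein of the small ribosomal subunit, 13.28 ± 0.09). The next named genes were Laptm4a and Ctsl, a lysosomal membrane protein and the protease cathepsin L, then Rpl6, Atp6v0c (a subunit of the proton pump of lysosomes), Tuba1b (alpha tubulin) and Atp5f1b (ATP synthase beta subunit), at 13.19 to 13.24. Of the 100 brightest genes, 26 were ribosomal protein genes and 42 were probes with no symbol. The order is one of probe brightness, which depends on each probe's own hybridisation, and it does not rank transcripts.

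The top of the ranking was shared between tumours. Of all genes, 52 were among the 100 brightest on every array and 142 on at least 1. The SD of the 100 brightest ran from 0.03 to 0.43, with a median of 0.12, below the 0.26 of all kept genes. The parts of the scanner's upper range and of quantile normalization, which gives all arrays the same top values, were not tested. The same limit holds for the narrow spreads of bright genes given below.

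Mesenchymal and glioma markers, listed to check the labelled cell type, were detected. All 22 measured ones were kept, with a median SD of 0.24, close to the 0.26 of all kept genes. Of these, 3 (13.6%, against 3.92% of all kept genes) had an SD of at least 1, and 11 were highest in rat 3 (against 30.4% of all kept genes). Gja1, which codes for the gap junction protein connexin 43, was at 13.08 ± 0.08, the narrowest spread in the astrocyte list. The following genes were chosen as examples after their values were seen. S100a4, a calcium-binding protein of mesenchymal cells, was at 13.08 ± 0.12, Vim (vimentin) at 12.49 ± 0.24 and Fn1 (fibronectin) at 12.37 ± 0.26. Col1a2, a chain of type I collagen, was at 12.97 ± 0.29, and Pdgfra, a receptor tyrosine kinase of mesenchymal and glial precursor cells, was at 11.33 ± 0.42. Twist1, a transcription factor of mesenchymal cells, had the narrowest spread in its list at 8.71 ± 0.10. The rat probe of Egfr was detected on 0 of 6 arrays, as were those of its ligands Areg and Btc. Among genes that most cells use, also chosen after their values were seen, the probes of Rpl11, Rps19, Actg1 and Hsp90ab1 were also detected on 0 of 6 arrays. Lack of detection here is a statement on the probe.

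A steady set could be named from genes detected on all 6 arrays. Of these 10056 genes, 334 (3.32%) had an SD of at most 0.1, 258 of them with a symbol, among them 15 ribosomal protein genes and 3 proteasome subunits. Among genes with a symbol in the upper part of the signal range, the narrowest spreads were those of Rpl7l1, a ribosome assembly factor, at 11.27 ± 0.03, and of Sumo2, a protein modifier of the ubiquitin type, at 12.17 ± 0.03. The next 10 genes with a symbol had SDs of 0.04 to 0.05. They were Zfp207, Gpx8 (an endoplasmic reticulum peroxidase), Cops4 (COP9 signalosome), Rnf31 (linear ubiquitin chain assembly), Ehmt2 (a histone H3 lysine methyltransferase), Maea, Sfr1, Skp1 (SCF ubiquitin ligase), Tiprl and Abhd17c. With median scaling in place of quantile normalization 200 genes had an SD of at most 0.1, 88 of them shared with the 334. Sumo2 ran from 12.13 to 12.22 over the 6 tumours, and no tumour was set apart in it.

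Genes commonly used to scale expression data differed from each other in spread. All 18 measured ones were kept, with a median SD of 0.13. Rplp1 (13.00 ± 0.05), Actb and Ywhaz (13.01 ± 0.08) were the steadiest, followed by Hprt1 (11.54 ± 0.10), Rplp0 (0.11) and Pgk1 (11.86 ± 0.11). Rplp1, Actb and Ywhaz ranked 86, 5 and 85 by mean signal. The part of the top of the signal range in their small SDs was not tested. The place of Actb depended on its probe, since a second Actb probe (mean 13.26) had an SD of 0.15, with r = 0.15 to the brighter one. Gapdh, a glycolytic enzyme, was at 11.55 ± 0.21 and Tbp, the TATA-binding protein, at 8.35 ± 0.24. The widest were Psmb2 (0.32), Tfrc (0.34) and Gusb, a lysosomal glucuronidase (10.68 ± 0.35). Of the fixed lists, ribosomal proteins (32 kept, median SD 0.14), the proteasome (24 kept, 0.19) and oxidative phosphorylation (23 kept, 0.22) were the other narrow ones, with no member at an SD of 1.

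Wide spreads lay with a pair of tumours. Each of the 478 genes with an SD of at least 1 was assigned to the tumour farthest from the median of the other 5. In rat 2 this value was high for 276 genes (57.7%), and in rat 3 it was low for 106 (22.2%). The other 10 combinations of tumour and direction held 0 to 23 genes each. Without rat 2, 288 of 11772 genes (2.45%) reached an SD of 1, without rat 3 367 of 11820 (3.1%), and without both 110 of 11323 (0.971%). The filter on detection was applied anew in each case.

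**Figure D2:**
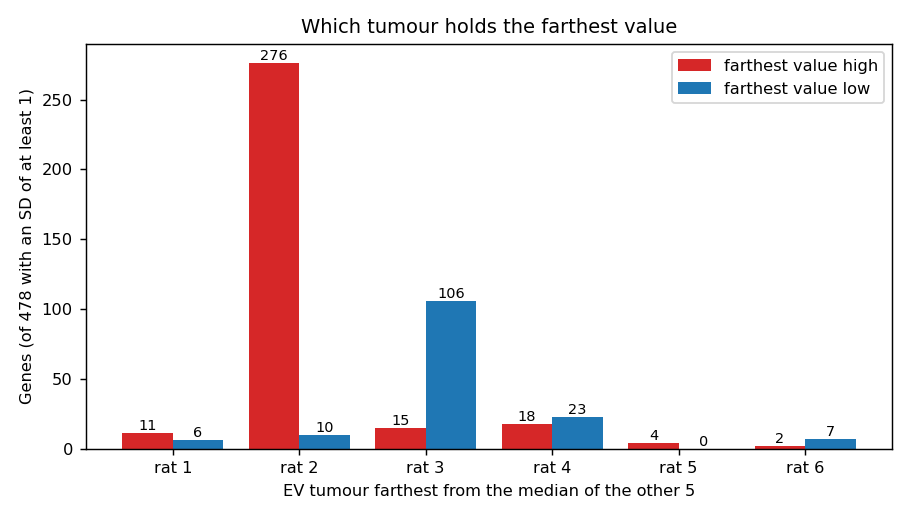
Number of genes, of the 478 with an SD of at least 1, by the tumour whose value lies farthest from the median of the other 5 and by direction (red high, blue low). Rat 2 holds 276 genes as a high value and rat 3 holds 106 as a low one, while rat 5 holds 4 high and 0 low.

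The widest genes fell into groups with a shared order of tumours. Average linkage on the correlation between genes over the 6 tumours gave 8 groups, 3 of them with at least 10 genes. The largest held 289 genes (60.5% of the 478, mean correlation between pairs 0.90), the second 143 (29.9%, 0.82) and the third 36 (7.5%, 0.77). Over pairs of all kept genes the mean correlation was 0.03. The groups were formed on these correlations, so the values describe them and test nothing. With a closer grouping distance of 0.3 in place of 0.5 there were 16 groups, the largest of 273, 117 and 24 genes.

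**Figure D3:**
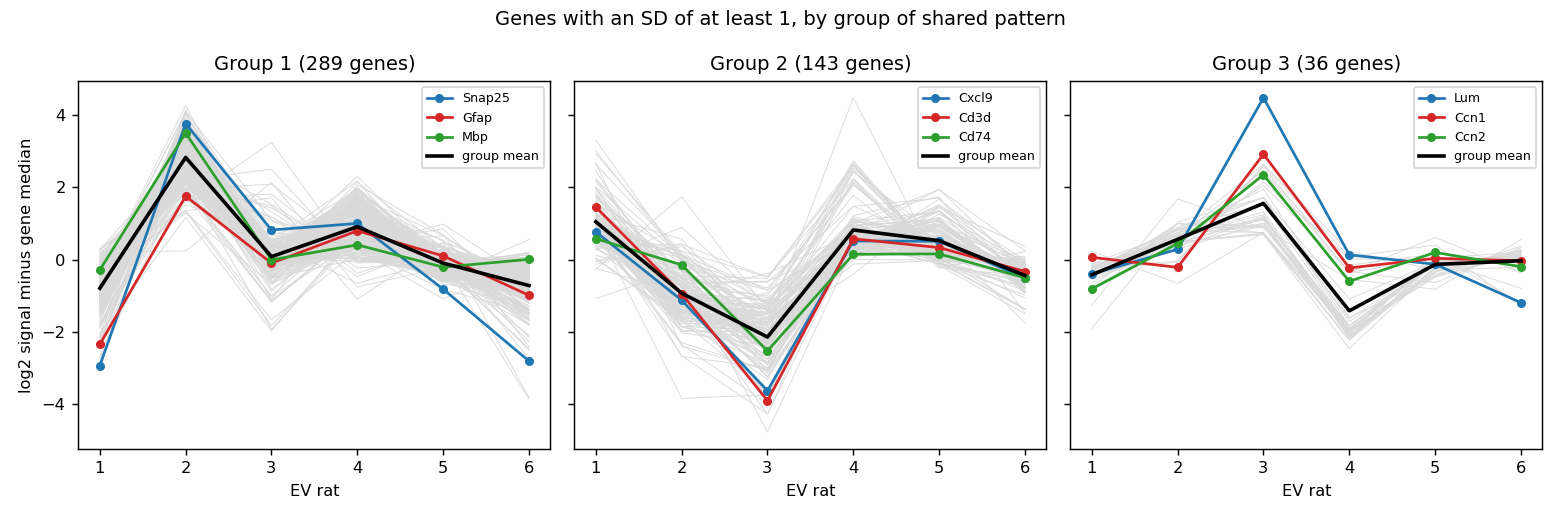
Log2 signal minus the gene's median over the 6 EV tumours for every gene (grey) of the 3 groups with at least 10 genes, with 3 genes in colour and the group mean in black. Group 1 peaks in rat 2 (mean 2.83), group 2 is lowest in rat 3 (mean -2.15), and group 3 is highest in rat 3 (mean 1.56) and lowest in rat 4 (mean -1.42).

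The first group held genes of neurons and glia, with 8 from the neuron list, 7 from the astrocyte list and 4 from the oligodendrocyte list. In 283 of its 289 genes rat 2 was the highest tumour, and the lowest was rat 1 in 159 and rat 6 in 112. Snap25, a SNARE protein that drives fusion of synaptic vesicles, had log2 signals of 4.68, 11.38, 8.44, 8.62, 6.80 and 4.80 in rats 1 to 6. Rat 2 was 95.8-fold above rat 6, the lowest tumour with a detected signal, and in rat 1 the probe was not detected. Syt1, the calcium sensor of vesicle release, had 5.04, 11.52, 8.08, 9.49, 7.76 and 5.41, a span of 89.1-fold. Both genes gave the same order, with rat 2 above rat 4, rats 3 and 5 in the middle, and rats 6 and 1 lowest.

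Rat 2 was also the highest and rat 1 the lowest tumour in other neuronal genes. Nefl, the light neurofilament subunit, was at 10.53 in rat 2 and not detected in rats 1 and 6, a span of at least 53.9-fold. Syp, a synaptic vesicle protein, was at 10.43 in rat 2 and not detected in the same 2 tumours (at least 50.3-fold). Eef1a2, the translation elongation factor of neurons and muscle, spanned 66.9-fold, and Nell2, a glycoprotein secreted by neurons, 59.6-fold. Lamp5, a membrane protein of neurons, spanned at least 49.0-fold, and Itih3, a hyaluronan-binding protein, at least 61.0-fold. Of the neuron list, 14 of 18 measured markers were kept and 8 of these had an SD of at least 1, against 3.92% of all kept genes. Rat 2 was the highest tumour for all 14, against 14.1% of all kept genes. The markers Rbfox3, Gad2, Slc17a7 and Syn1 were detected on 1 or 2 arrays and were not kept. Nefh, the heavy neurofilament subunit, had the smallest spread in the list at 4.76 ± 0.28, near background.

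Most astrocyte markers were highest in rat 2, as those of neurons were. The astrocyte list had 13 kept markers of 13, and 7 had an SD of at least 1, against 3.92% of all kept genes. Rat 2 was the highest tumour for 11, against 14.1% of all kept genes, rat 1 for 1 and rat 3 for 1. Gja1, with its narrow spread of 0.08, was highest in rat 1 (13.20). Gjb6, the gap junction protein connexin 30, was at 10.11 in rat 2, at 4.52 to 7.09 in the other 5 tumours and not detected in rat 6. Aldoc, the brain aldolase, was at 11.69 in rat 2 and 6.23 to 8.53 in the others. Mlc1, a membrane protein of astrocyte endfeet, was at 9.46 in rat 2 and 4.60 to 7.10 in the others. Rat 2 was the highest tumour in Gjb6, Aldoc and Mlc1, which were named for the widest spreads of the list. Gfap, the intermediate filament of astrocytes, had 8.27, 12.38, 10.52, 11.42, 10.72 and 9.63 in rats 1 to 6. Rat 1 lay farthest from the rest in Gfap, on the low side. In Fabp7, the fatty acid binding protein of radial glia, rats 1 and 3 were low together (7.87 and 7.94), with 9.57 to 11.08 in the others.

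Myelin genes were also highest in rat 2. Of the oligodendrocyte list 9 of 11 measured markers were kept, and 4 had an SD of at least 1, against 3.92% of all kept genes. Rat 2 was highest for all 9, against 14.1% of all kept genes. Mobp, a myelin protein, was at 8.96 in rat 2 and 4.79 to 5.42 in the others. Mog, the myelin oligodendrocyte glycoprotein, chosen after its values were seen, was at 9.27 in rat 2 and 5.34 to 6.41 in the others. Mbp, the myelin basic protein, was at 10.04 in rat 2 and 6.25 to 6.94 in the others. In Mobp, Mog and Mbp the other 5 tumours lay close together, whereas they spread widely in Snap25 and Syt1. Cldn11, the claudin of the myelin sheath, was at 9.21 in rat 2 and 7.84 in rat 3, with 4.80 to 6.38 in the other 4. Of the 6 precursor markers, all kept, rat 2 was highest for 2, rat 3 for 2 and rat 6 for 2, and the mean correlation between pairs was 0.29. Olig1 (10.33 in rat 2, 5.95 to 8.33 in the others) and Sox10 (7.5 in rat 2, 4.83 to 5.57 in the others) reached an SD of 1. Without rat 2, 69 of the 289 genes still had an SD of at least 1, and without rats 2 and 3 it was 61.

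The second group held lymphocyte and interferon genes, with 14 from the T and NK cell list and 8 from the interferon response list. It also held 7 from the chemokine list and 5 from the microglia and macrophage list, and lists can overlap. Rat 3 was the lowest tumour in 131 of its 143 genes and rat 2 in the other 12, while the highest was rat 1 in 95, rat 4 in 24 and rat 5 in 23. Without rat 3, 64 of the 143 genes had an SD of at least 1, and without rats 2 and 3 it was 28. Cxcl11, a ligand of Cxcr3, had 11.29, 7.73, 6.12, 11.46, 11.73 and 9.51 in rats 1 to 6, a span of 48.8-fold. Cxcl10 had 10.11, 7.06, 5.41, 10.35, 10.53 and 8.71, and Cxcl9 had 13.33, 11.44, 8.93, 13.08, 13.07 and 12.06. These 3 chemokines put rats 1, 4 and 5 together at the top, rat 6 next, then rat 2 and then rat 3. Cxcl13, the B cell chemokine, had 13.08, 11.03, 6.56, 11.66, 11.88 and 10.82. In Cxcl13 rat 3 alone was far below the rest, with a span of 91.9-fold.

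Other genes of this group also had wide spreads. Fcnb, the secreted lectin ficolin B, had 10.07, 5.33, 5.43, 10.08, 10.32 and 8.30, with rats 2 and 3 both low. Scin, an actin-severing protein, had 10.54, 5.46, 4.78, 8.91, 8.60 and 7.10, a span of 54.1-fold. Ubd, a ubiquitin-like modifier induced by interferon, was at 7.36 in rat 3 and 10.49 to 12.69 in the others. Ccl4, a chemokine of T cells and macrophages, was highest in rat 1 (8.72) and not detected in rat 3. Il2ra, the alpha chain of the interleukin 2 receptor, was highest in rat 5 (7.30) and not detected in rats 2 and 3.

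T and NK cell markers had the largest share of wide spreads among the lists. Of 22 measured markers 20 were kept, with a median SD of 1.35. Of the 20, 14 (70%, against 3.92% of all kept genes) had an SD of at least 1. Rat 3 was the lowest tumour for all 20, against 21.6% of all kept genes. Cd3d, a chain of the T cell receptor complex, had 10.15, 7.75, 4.78, 9.27, 9.02 and 8.36 in rats 1 to 6. Nkg7, a cytotoxic granule protein, had 10.88, 7.18, 5.21, 9.98, 9.38 and 8.37, and Ccl5, a chemokine made by T and NK cells, had 11.31, 9.39, 6.05, 10.89, 10.50 and 10.18. Rat 1 was highest and rat 3 lowest in each. Klrk1 had the smallest spread, at 4.98 ± 0.20 near background, and Cd5 and Foxp3 were detected on 0 arrays. Without rat 3, 5 of the 20 T and NK cell genes kept had an SD of at least 1, against 3.1% of all kept genes.

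Macrophage and microglia markers were mostly lowest in rat 3 and closer together in the other 5 tumours. Of 19 measured markers 18 were kept, and 6 (33.3%, against 3.92% of all kept genes) had an SD of at least 1. Rat 3 was lowest for 16, against 21.6% of all kept genes. Laptm5, a lysosomal protein of blood cells, was at 6.85 in rat 3 and 9.35 to 10.36 in the others. Aif1, the actin-binding protein of macrophages and microglia, was at 9.58 in rat 3 and 11.29 to 12.55 in the others. Both were named for their wide spreads, and rat 3 was the lowest tumour in each. Mrc1, the mannose receptor, went another way, with 4.73 in rat 1 and 6.52 to 7.66 in the others, and Tmem119, a microglial membrane protein, was even at 7.28 ± 0.18. Without rat 3, 1 of the list's 18 kept genes had an SD of at least 1, against 3.1% of all kept genes. Of 10 neutrophil markers 4 were kept, and S100a9, Elane, Csf3r, Mmp8 and Cxcr2 were detected on 0 arrays. Mast cell markers Cpa3, Tpsb2, Cma1 and Fcer1a were also detected on 0 arrays.

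Genes of MHC class II presentation were mostly lowest in rat 3, 9 of 10 kept genes of 10 measured, against 21.6% of all kept genes. Cd74, the invariant chain, was at 8.92 in rat 3 and 10.94 to 12.03 in the others, and RT1-DMa, which helps load peptides, was at 7.47 in rat 3 and 9.21 to 10.31 in the others. Ciita, the master regulator of class II genes, had 7.22, 5.42, 5.15, 7.12, 7.37 and 5.85 in rats 1 to 6. Unlike Cd74, Ciita was low in rats 2 and 6 as well as in rat 3. In MHC class I presentation 1 of 17 kept genes (5.88%, against 3.92% of all kept genes), the immunoproteasome subunit Psmb9, had an SD of 1. B2m, the light chain of class I, had the narrowest spread in that list at 13.04 ± 0.12.

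Interferon response genes were mostly lowest in rats 2 and 3. Of 34 measured genes 30 were kept (median SD 0.76), and 8 (26.7%, against 3.92% of all kept genes) had an SD of at least 1. Rat 2 was the lowest tumour for 16 and rat 3 for 13, against 30.7% and 21.6% of all kept genes. Rat 1 was the highest for 21, against 16.4% of all kept genes. Mx1, an antiviral GTPase, had 10.94, 7.92, 7.93, 10.63, 9.84 and 9.55 in rats 1 to 6, and Igtp, a GTPase induced by interferon-gamma, had 10.70, 8.07, 8.13, 10.31, 10.48 and 8.96. Psmb10, another immunoproteasome subunit, was at 12.35, 11.04, 10.37, 12.41, 12.39 and 11.80. Rats 2 and 3 were below the other 4 in Mx1, Igtp and Psmb10. Of these, Mx1 and Igtp were named for a low value in rat 2. Ido1 was the steadiest of the list at 6.46 ± 0.17, and Isg15 and Ifit1 were detected on 0 arrays.

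Promoters of the interferon list are described beside those of all genes. The list was made of genes known to respond to interferon, so a high share is built into it. The share therefore says nothing on the order of tumours. The letters GAAANNGAA, the core of the element bound by interferon regulatory factors, were searched on both strands (TTCNNTTTC on the other) in a window of 300 bases around each start in RefSeq, most of it upstream. They stood in 15 of the 24 promoters found for the list (62.5%), and in 3251 of 33469 promoters of all genes (9.71%). Overlapping matches were counted apart. The sequences of Cxcl10 (chr14:15988816-15989115, plus strand), Igtp (chr10:42874797-42875096, plus strand) and Psmb10 (chr19:50743243-50743542, minus strand) in the assembly GRCr8 are given 5′ to 3′, with the matches in capitals.
Cxcl10: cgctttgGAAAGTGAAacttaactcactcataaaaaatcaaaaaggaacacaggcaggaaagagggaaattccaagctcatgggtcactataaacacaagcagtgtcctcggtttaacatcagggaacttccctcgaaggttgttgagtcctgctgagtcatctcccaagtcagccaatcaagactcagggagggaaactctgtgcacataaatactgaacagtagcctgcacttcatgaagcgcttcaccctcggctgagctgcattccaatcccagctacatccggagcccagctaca
Igtp: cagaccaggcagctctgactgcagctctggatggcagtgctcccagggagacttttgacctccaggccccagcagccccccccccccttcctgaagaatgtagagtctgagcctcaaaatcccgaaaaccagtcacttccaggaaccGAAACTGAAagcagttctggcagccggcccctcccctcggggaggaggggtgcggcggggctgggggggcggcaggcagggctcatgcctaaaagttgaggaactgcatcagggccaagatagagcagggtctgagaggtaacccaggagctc
Psmb10: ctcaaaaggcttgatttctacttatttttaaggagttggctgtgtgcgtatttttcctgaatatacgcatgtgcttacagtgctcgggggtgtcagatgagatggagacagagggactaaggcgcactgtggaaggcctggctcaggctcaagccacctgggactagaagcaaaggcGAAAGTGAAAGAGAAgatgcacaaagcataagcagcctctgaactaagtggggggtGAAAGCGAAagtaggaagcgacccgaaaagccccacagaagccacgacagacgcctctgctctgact
Psmb10 held 3 matches, 2 of them overlapping, and Cxcl10 and Igtp held 1 each. The letters were not in the same window of Cxcl9, Cxcl11, Mx1 and Psmb9. A match describes the sequence and shows no binding.

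Globin genes were also lowest in rats 2 and 3. Hbb, beta globin, had 12.40, 9.62, 9.24, 12.02, 11.81 and 11.18 in rats 1 to 6, and Hba-a1, alpha globin, had 12.23, 9.45, 9.20, 11.89, 11.71 and 11.08. Rats 2 and 3 were below the other 4 in both. The globin genes have near-identical copies, so the signals of Hbb, Hbb-b1 and Hba-a1 may each hold signal of a copy. The other 3 kept members of the red blood cell list did not share this order. Slc4a1, the anion exchanger of red blood cells, was at 5.27 ± 0.18 with rat 6 highest and rat 2 lowest. Of the 6 kept members rat 3 was lowest in 4 and rat 2 in 2, against 21.6% and 30.7% of all kept genes. The mean correlation between pairs of the list was 0.33. Globins are products of red blood cells, and their part in the second group was not tested.

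The third group was small and highest in rat 3. Its 36 genes included 11 with a symbol, and rat 3 was the highest tumour in 32 and rat 4 the lowest in 26. Lum, the matrix proteoglycan lumican, was at 10.06 in rat 3 and 4.38 to 5.86 in the others, and was not detected in rat 6. Ccn1, a matricellular protein, was at 9.56 in rat 3 and 6.41 to 6.70 in the others, and Ccn2, its relative, was at 11.97 in rat 3 and 8.81 to 10.07 in the others. Aqp1, a water channel, was at 9.62 in rat 3 and 6.62 to 7.80 in the others. Rat 3 was the highest tumour in each of these genes, which were named for a high value in rat 3 or for a wide spread. Of the group's 25 probes without a symbol, 23 had their farthest value in rat 4 and were low there.

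Further connective tissue genes differed in which tumour was highest. Dcn, the proteoglycan decorin, had 6.27, 8.28, 9.92, 6.60, 6.74 and 4.39 in rats 1 to 6, and was not detected in rat 6. Ptgds, a prostaglandin synthase of the meninges and of oligodendrocytes, had 10.05, 12.84, 12.10, 11.00, 10.85 and 7.06. Rat 6 was thus low in both, while rat 2 exceeded rat 3 in Ptgds only. Of 23 kept collagen genes and modifying enzymes, 16 were highest in rat 3, against 30.4% of all kept genes. The list had a median SD of 0.36. In it 1 member (4.35%, against 3.92% of all kept genes), Col8a1 of the third group, reached an SD of 1. Col8a1 was at 8.74 in rat 3 and 4.83 to 6.53 in the others. Col6a1 was at 12.87 in rat 3 and 10.72 to 11.98 in the others, and Serpinh1, the collagen chaperone, was the steadiest at 6.34 ± 0.08.

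**Figure D4:**
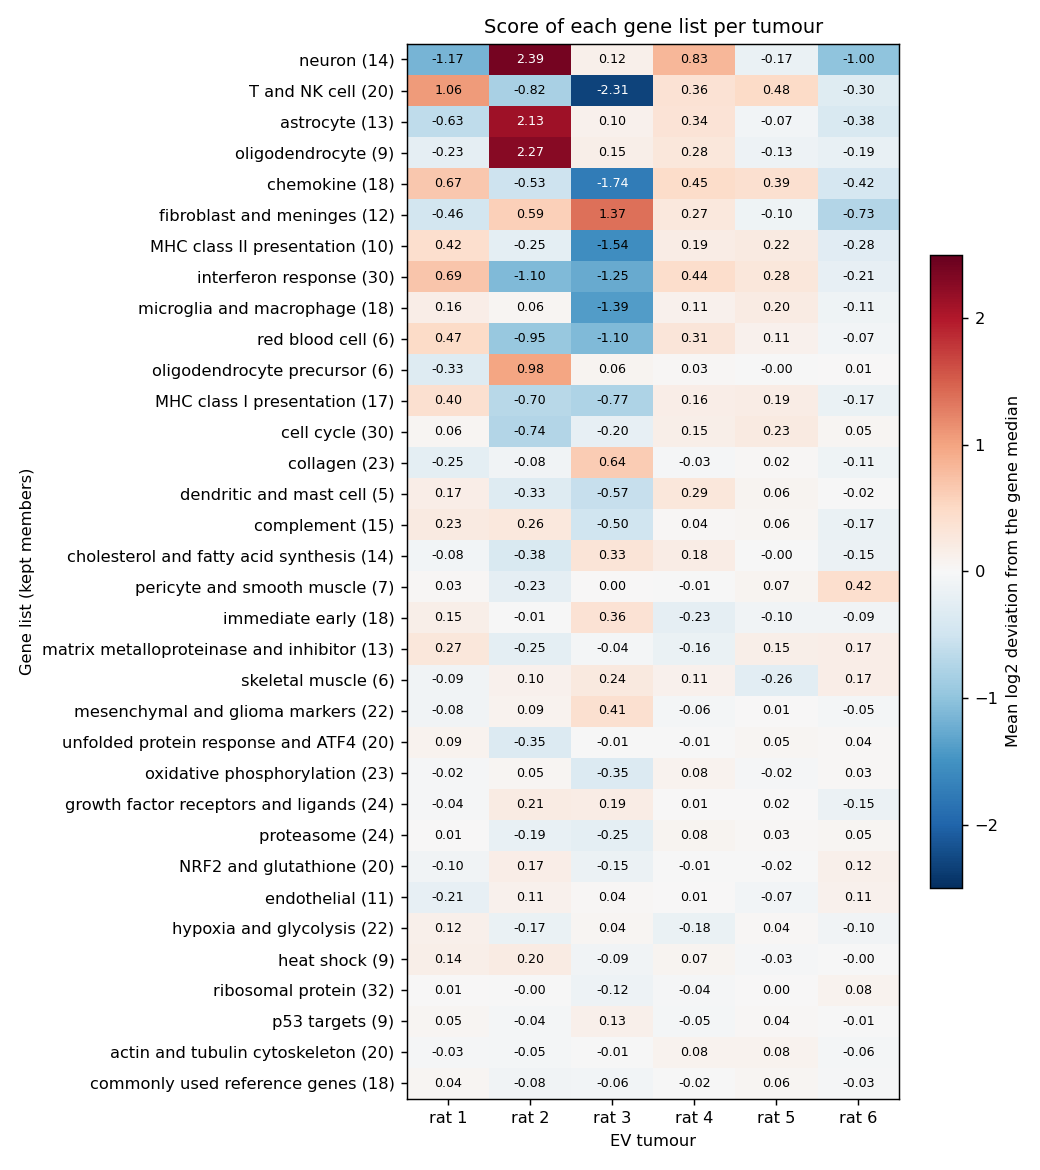
Score of each gene list with at least 5 kept members in each EV tumour, the mean over its members of the log2 signal minus the gene's median over the 6 tumours (red above, blue below), ordered by range. The neuron score runs from -1.17 in rat 1 to 2.39 in rat 2, the T and NK cell score from -2.31 in rat 3 to 1.06 in rat 1, and the reference gene score stays between -0.08 and 0.06.

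Cell cycle genes were mostly lowest in rat 2. All of the 30 kept genes had an SD under 1, with a median of 0.40, above the 0.26 of all kept genes. The mean correlation between pairs was 0.70, but 0.27 without rat 2 and 0.06 without rats 2 and 3. Rat 2 was the lowest tumour for 28 of the 30, against 30.7% of all kept genes, and the score was -0.74 in rat 2 and -0.20 to 0.23 in the other 5. Tyms, thymidylate synthase, had the widest spread at 6.93 ± 0.68, then Cdc6 (7.97 ± 0.64) and Mcm3 (8.39 ± 0.57), which both license replication origins. Pcna, the polymerase clamp, was bright and the most even at 12.27 ± 0.22. The letters CCAAT, or ATTGG on the other strand, stood in 15 of 22 promoters of the list (68.2%) and in 12549 of all 33469 (37.5%). The list was made of known cell cycle genes, so this share describes the list and not the order of tumours.

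Vessel and hypoxia genes did not move as sets. The mean correlation between pairs was 0.02 in the endothelial list and 0.04 in the hypoxia and glycolysis list, near the 0.03 of all genes, and neither had a member with an SD of 1. Within the endothelial list, Plvap, a diaphragm protein of fenestrated vessels, was lowest in rat 2 (7.06, against 7.94 to 9.14 in the others). Cldn5, a tight junction protein of the blood-brain barrier, was highest in rat 2 (11.44, against 9.70 to 10.48 in the others) and lowest in rat 1, where Plvap was highest. In the hypoxia list Pkm (6.10 ± 0.86), the lactate exporter Slc16a3 (6.50 ± 0.85) and Car9, carbonic anhydrase 9 (6.40 ± 0.82), were the widest, and Gpi, a glycolytic enzyme, was the narrowest at 12.07 ± 0.06.

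Correlations between list scores were computed for 14 pairs over the 6 tumours, with an exact two-sided permutation test that can give no p below 0.00139. Genes held by both lists of a pair were left out of both. By Pearson's r, 6 pairs had an adjusted p under 0.05. The lists were chosen with earlier results of these data known, so these p-values are not those of an independent test. Neuron and astrocyte scores had r = 0.969 (exact p = 0.00139, adjusted 0.00648) and Spearman's rho = 1.00 (exact p = 0.00278, adjusted 0.0130). Without rats 1 and 2, the tumours farthest from the median, r was 0.997. Neuron and oligodendrocyte scores had r = 0.920 and the same p-values and rho, and r was 0.916 without rats 1 and 2. The order of the 6 tumours was thus the same in the neuron, astrocyte and oligodendrocyte lists.

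The T and NK cell score ran with interferon and antigen presentation. With MHC class I presentation it had r = 0.935 (exact p = 0.00139, adjusted 0.00648) and rho = 1.00 (adjusted 0.0130), and r = 0.979 without rats 1 and 3. With the interferon response it had r = 0.934 (exact p = 0.00278, adjusted 0.00972) and rho = 0.943 (exact p = 0.0167, adjusted 0.0583), and r = 0.966 without rats 1 and 3. With macrophages it had r = 0.888 (exact p = 0.0208, adjusted 0.0486) and rho = 0.886 (exact p = 0.0333, adjusted 0.0778). That value was 0.602 without rats 1 and 3, 0.921 without rat 1 alone, 0.649 without rat 3 alone and 0.836 without rats 2 and 3. Macrophage and MHC class II scores had r = 0.956 (exact p = 0.00972, adjusted 0.0272), rho = 0.886 (exact p = 0.0333, adjusted 0.0778) and r = 0.855 without rats 3 and 6. By rho, 3 of the 6 pairs kept an adjusted p under 0.05.

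The other 8 pairs did not pass. Neuron and cell cycle scores had r = -0.747 (exact p = 0.0861, adjusted 0.134) and rho = -0.371 (exact p = 0.497, adjusted 0.696), with r = 0.05 without rats 1 and 2. It was -0.763 without rat 1 alone and 0.08 without rat 2 alone, so the negative value rested on rat 2. Fibroblast and collagen scores had r = 0.787 (exact p = 0.05, adjusted 0.1) and rho = 0.714 (exact p = 0.136, adjusted 0.272), and r = 0.338 without rats 3 and 6. Endothelial and hypoxia scores had r = -0.760 (exact p = 0.0764, adjusted 0.134) and rho = -0.543 (exact p = 0.297, adjusted 0.462), and r = -0.175 without rats 1 and 5. In the remaining 5 pairs r ran from -0.244 to 0.440, with adjusted p of 0.634 to 0.914. All scores come from the same 6 arrays.

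**Figure D5:**
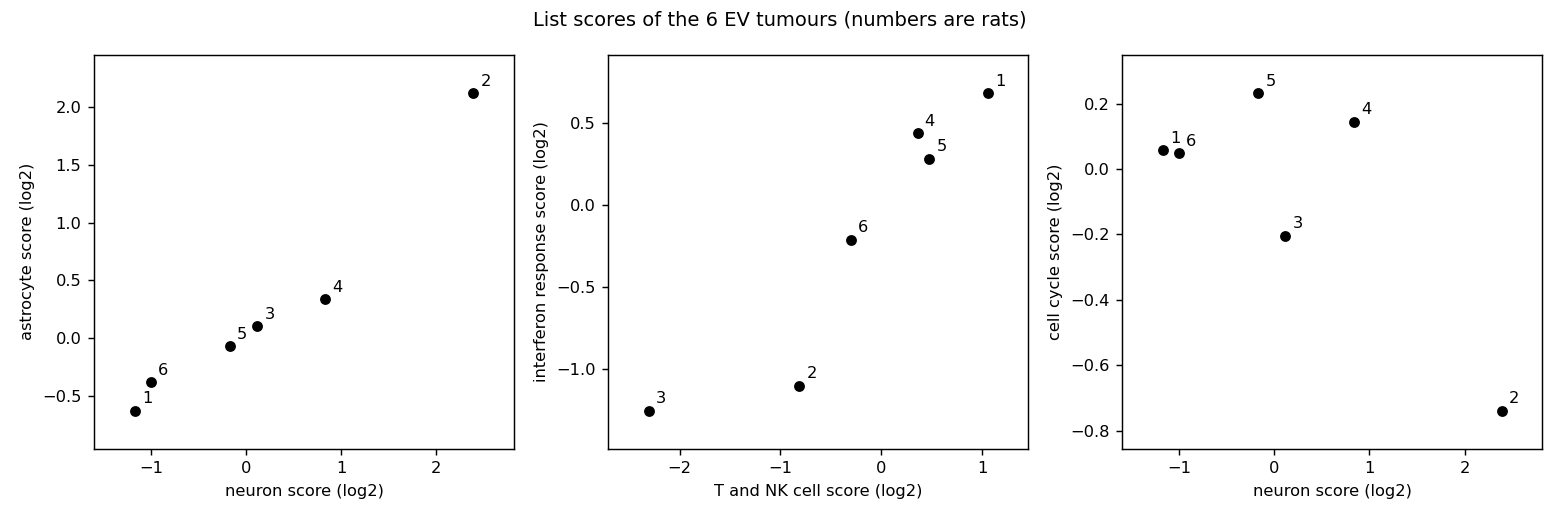
List scores of the 6 EV tumours plotted against each other, each point a tumour numbered by its rat (log2). Neuron and astrocyte scores put the 6 tumours in one order (r = 0.969), T and NK cell and interferon scores also rise together (r = 0.934), and the cell cycle score is low in rat 2 alone (r = -0.747 with the neuron score).

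Genes with several probes allowed a check within the arrays. For 168 genes 2 probes were kept. Where the brighter probe had an SD of at least 0.5 (16 genes), the median correlation between the probes over the 6 tumours was 0.94, with 11 above 0.9 and 2 below 0. For the other 152 genes it was 0.58. Of the 4 such genes with an SD of at least 1, Kcnc2, a potassium channel (0.995), and Cspg5, a neural proteoglycan (0.964), had probes that moved together. The probes of Ezh1, a Polycomb methyltransferase (-0.567), and of Ppp1r1b, a phosphatase inhibitor of striatal neurons (-0.03), did not, and their spreads are uncertain.

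Differences between chromosomes were small. For 8650 genes with a position, the median deviation from the gene mean was taken per chromosome and tumour, and all medians lay between -0.130 and 0.158. Rat 2 had the lowest median on every chromosome, from -0.130 on chromosome X to -0.04 on chromosome 15. The share of genes with an SD of at least 1 ran from 0.844% on chromosome 16 to 5.95% on chromosome 15.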

How the data were processed

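RNA of 6 9L.EV tumours was measured on Illumina arrays. Per the file headers, the deposited non-normalized table holds an average signal intensity per probe, which goes below 0, so the authors had subtracted a background. The deposited detection score is a fraction from 0 to 1, taken here as the complement of a detection p. The authors' value table served as an alternative and, judged by its values, is log2. The submitters' processing notes name Partek, with no steps given in the sources used here.

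With limma 3.58.1 in R 4.3.3, the 6 intensity columns were background corrected by neqc (normexp with controls inferred from the detection p, offset 16), log2 transformed and quantile normalized. Of 22523 probes, 13793 had 1 gene symbol, 0 several and 8730 none in the platform annotation. Probes detected at p under 0.05 on at least 3 arrays were kept (12358), and the brightest stood for its gene. An intercept was fitted with eBayes (trend, robust), and each variance over its trend was tested by F with 5 and 4.08 degrees of freedom, one-sided, Benjamini-Hochberg adjusted over 12182 genes, and tested on simulated data. A span is the highest over the lowest tumour, with undetected values raised to the array's lowest detected signal, which then makes it a lower bound. The 6 arrays limit the precision, and no scan date or chip position was used.

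The named genes are the 12 brightest, the 12 steadiest, the 12 widest, up to 4 per tumour and direction, the 3 widest and the steadiest of each list, and the reference genes. As no gene passed the test, the parts for variable genes used an SD of at least 1. Of 729 list symbols, 603 matched directly, 12 by an older name and 114 not at all. The lists and the rule were chosen with earlier results of these data known. Promoters are RefSeq's, GRCr8. Scores and permutations ran in Python 3.11.15 (scipy 1.17.1, numpy 2.4.6) and figures in matplotlib 3.10.9.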

Additional observations from a re-analysis of the deposited data

Results flagged for a closer look

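Of 105 quantities examined, 15 had a tumour set far from the others. Its gap to the nearest other tumour took up more of the whole range than Dixon's critical value for 6 samples allows. For a single quantity not chosen by its values, chance gives about 1 in 20. That rate is no baseline here, since some genes were named for a tumour far from the rest and all quantities share the same arrays. Of the 15, 9 were list scores. Rat 2 was far above the others in the astrocyte (2.13), oligodendrocyte (2.27) and oligodendrocyte precursor (0.98) scores, and far below them in the unfolded protein response and ATF4 score (-0.35). Rat 3 was far below in the microglia and macrophage (-1.39), MHC class II presentation (-1.54) and oxidative phosphorylation (-0.35) scores. Rat 3 was far above in the collagen (0.64) and mesenchymal and glioma (0.41) scores.

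The other 6 were single genes. Rat 3 was far below the others in Cxcl13 (6.56) and far above them in Lum (10.06) and Ccn1 (9.56). Smaller gaps were those of Actb in rat 1 (13.45, against 13.24 to 13.29 in the others), Rpl6 in rat 3 (13.49, against 13.15 to 13.20) and Gpx8 in rat 3 (12.19, against 12.08 to 12.12). Actb, Rpl6 and Gpx8 are genes with narrow spreads, where a small gap fills much of the range. The values of 13.49 in Rpl6 and 13.45 in Actb recurred in other tumours in Txn1 and Rpl10. Quantile normalization gives all arrays the same set of values, so these gaps lie between its top steps.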

How the results depend on the processing

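No gene was called for a wide or narrow spread with another normalization, filter, choice of probes, offset or prior, with the authors' value table, or with any 1 tumour left out. Without rats 2 and 3, left out together after the data were seen, 29 genes were called as wide and 0 as narrow over 4 tumours. The 478 genes with an SD of at least 1 became 1128 with the authors' value table, 270 with detection on all 6 arrays and 232 with an offset of 50, and 110 without rats 2 and 3. Leaving out each tumour in turn gave 288 to 570, the lowest without rat 2. Of the 478, 477 were among those of the authors' table. The 334 steady genes became 200 with median scaling, 88 of them shared, 944 with an offset of 50, 1321 at an SD of at most 0.15, 1749 without rats 2 and 3, and 417 to 859 with each tumour left out. The 52 genes among the 100 brightest on all arrays stayed 52 with median scaling and with the authors' value table, all shared. Quantile normalization and median scaling both keep the order of probes within an array. That count thus could hardly change with median scaling and is no check on it. The 6 pairs of lists past the threshold were 5 with the authors' table, where T and NK cell with macrophage scores lost the call (r = 0.916). The causes of these shifts were not tested. In 5 equal parts of the genes by mean level, from dim to bright, 20, 188, 153, 73 and 44 of the wide genes fell. No paired analysis was possible because only 1 of the groups that share the rat numbers was used.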

Other observations

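Among the 4 tumours of rats 1, 4, 5 and 6, the 29 genes called by limma's variance test at an adjusted p of 0.05 included 24 with a symbol, and they were named after their values were seen. Of them 17 belonged to the first group and 10 to the second, which held 60.5% and 29.9% of the 478 wide genes. The groups were formed on all 6 arrays, these 4 among them. Membership therefore does not test whether a group's pattern recurs among these tumours. Gfap was at 8.29, 11.49, 10.78 and 9.67 in rats 1, 4, 5 and 6 (adjusted p = 0.0401, limma). Mt3, a metallothionein of the brain, was at 6.60, 10.64, 9.47 and 8.43. Acod1, the enzyme of itaconate synthesis in activated macrophages, was at 9.30, 8.04, 8.57 and 5.32, and Lbp, the lipopolysaccharide-binding protein, was at 7.82, 7.18, 8.76 and 4.47. Rat 1 was thus lowest in Gfap and Mt3, and rat 6 in Acod1 and Lbp. Ms4a4a, a membrane protein of macrophages, was low in rats 1 and 4 (4.99 and 5.24) and high in rats 5 and 6 (8.64 and 8.06). The fit has few degrees of freedom, and rats 2 and 3 were left out because they stood apart in these same data.

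Of the 41 genes whose widest deviation was in rat 4, 40 had no symbol, against 120 of all 478 genes with an SD of at least 1 (25.1%) and 28.9% of all kept genes. The probe ILMN_1369276 had 9.03, 6.25, 4.34, 10.57, 5.93 and 4.59 in rats 1 to 6, highest in rat 4. The probe ILMN_1362081 had 9.92, 11.00, 11.72, 8.25, 10.03 and 10.31, lowest in rat 4. The one gene with a symbol was Magea13, of the MAGE cancer-testis family, at 8.42 in rat 4, 5.89 to 6.62 in rats 2, 3, 5 and 6, and not detected in rat 1.

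A few genes with wide spreads followed none of the larger groups. Esm1, a proteoglycan secreted by endothelial cells, had 8.37, 4.67, 6.78, 5.80, 5.14 and 6.64 in rats 1 to 6, and Mmp12, the macrophage metalloelastase, had 7.73, 4.89, 6.79, 6.25, 5.55 and 7.08. Rat 1 was the highest and rat 2 the lowest tumour in both. Slc38a5, an amino acid transporter, was at 5.96 in rat 1 and 7.85 to 9.42 in the others. Ct55, a cancer-testis antigen, was at 7.68 in rat 6 and 7.45 in rat 2, and at 4.50 to 6.00 in the other 4.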
